A study of Arabidopsis thaliana with 12 samples.

Results

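AT1G61990 and AT1G62010 are genes of the mTERF family that lie close together on chromosome 1 of Arabidopsis thaliana, the thale cress. Both were chosen for having a probe annotated to 1 gene only and for lower values in the cold in these same arrays, so the change of each is given as a description, without a test. They account for 2 of the 692 probes annotated to 1 gene, in a table of 3439 probes. In the TAIR10.1 reference 1 protein-coding gene, AT1G62000, stands between them, and no probe with a gene annotation here listed it.

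Transcript levels were measured on 12 arrays of total RNA from wild-type plants of the ecotype Columbia 0. The ML_20C group, 6 arrays, came from plants grown in medium light at 20 °C, and the ML_4C group, 6 arrays, from plants moved to 4 °C for 24 h in medium light, which the submitters describe as photoinhibitory. All plants were wild type, and their age and the organs taken are not given in the labels. Replicates 1 and 2, 3 and 4, and 5 and 6 of a group were far more alike than under any of the other 14 ways to pair 6 arrays, so each pair was averaged and n = 3 per group. The labels do not say whether pairs came from separate plants, so a p-value speaks only to how far these samples differ among themselves, and that spread may be technical.

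mTERF proteins are built from repeated helical motifs, named after a transcription termination factor of human mitochondria, and bind nucleic acids. In plants the family is large, is encoded in the nucleus and acts in mitochondria and plastids, where the members studied take part in transcription, in intron splicing and in the making of organelle ribosomes. Plants lacking single members are known to have pale leaves, arrested embryos or altered responses to heat, light or salt. Several family members sit in a run of related genes on chromosome 1, and related sequences can bind to the same array probe.

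The 12 arrays were on a common scale, with means of 1.02 to 1.09 per array, but their distributions differed. The array median was 0.536 to 0.569 in the ML_20C group and 0.276 to 0.315 in the ML_4C group, and 154 to 226 probes per array were listed at 0. Of 3379 probes above 0 on at least 1 array, 1675 were called lower at 4 °C in limma on pair means (adjusted p below 0.05, Benjamini-Hochberg), which is 49.6%, and 232 were called higher, which is 6.87%, or 56.4% in either direction. Centring each array on its median turned the split into 636 lower and 1015 higher (18.8% and 30%), quantile normalization into 692 and 658 (20.5% and 19.5%), and cyclic loess into 701 and 646 (20.7% and 19.1%). The median log2 change over these probes was -0.74 as deposited. Median centring made it 0.17, quantile normalization 0.05 and cyclic loess -0.0016, so changes are also given relative to it. In bulk RNA, fewer cells of a type and less RNA per cell cannot be told apart.

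AT1G61990 stood above the array median on every array at 20 °C and below it on every array at 4 °C. Its deposited intensities at 20 °C were 0.872, 0.849, 0.913, 0.994, 0.881 and 0.771 on replicates 1 to 6. At 4 °C they were 0.126, 0.144, 0.172, 0.184, 0.123 and 0.162. The groups did not overlap, and the lowest array at 20 °C stood 4.20 times above the highest at 4 °C. All 6 arrays at 4 °C lay below all 6 at 20 °C for 48.9% of the 3379 probes, so a lack of overlap was common in this table. Over pair means the intensity was 0.880 ± 0.0660 at 20 °C and 0.152 ± 0.0228 at 4 °C (SD, n = 3). The log2 change was -2.55 ± 0.16 (SE), that is, 5.85-fold lower as a ratio of geometric means. Relative to the all-probe median it was -1.80 on the log2 scale.

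AT1G62010, the second gene, also stood above the array median on every array at 20 °C and below it on every array at 4 °C. Its intensities at 20 °C were 0.833, 0.858, 0.943, 1.03, 0.827 and 0.883 on replicates 1 to 6. At 4 °C they were 0.265, 0.287, 0.218, 0.238, 0.238 and 0.188. Again the groups did not overlap, with the lowest array at 20 °C 2.89 times above the highest at 4 °C. Over pair means the intensity was 0.896 ± 0.0789 at 20 °C and 0.239 ± 0.0329 at 4 °C (SD, n = 3). The log2 change was -1.91 ± 0.16 (SE), 3.77-fold lower, and relative to the all-probe median it was -1.17.

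**Figure D1:**
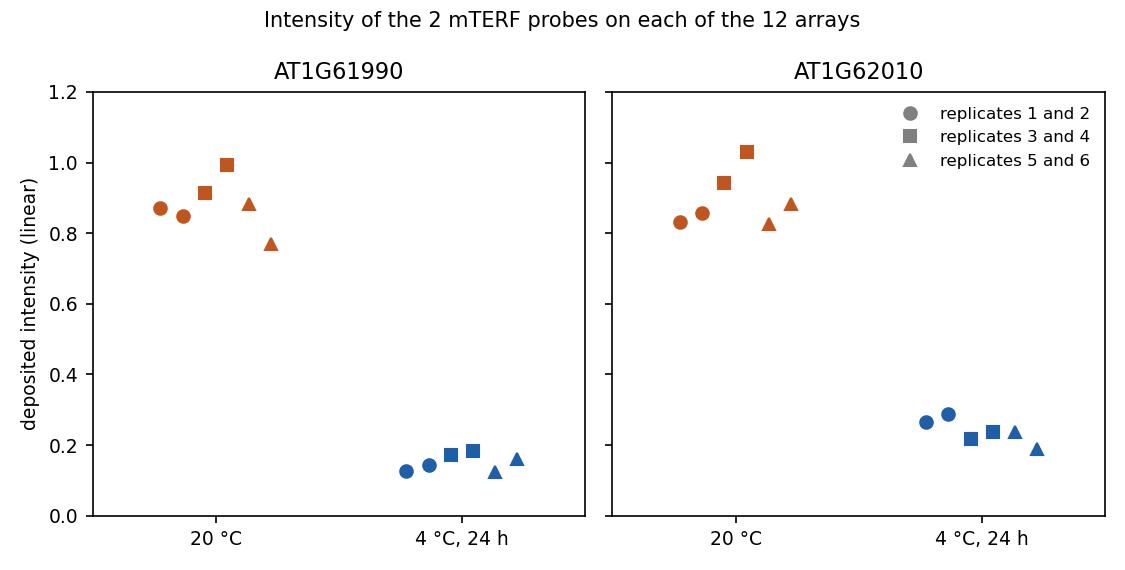
Deposited intensity on a linear scale (vertical axis) of AT1G61990 and AT1G62010 on each of the 12 arrays, by temperature. Symbols mark the arrays averaged as pairs, and for both genes all 6 arrays at 4 °C sit below all 6 at 20 °C.

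Within each temperature the pairs did not order the genes alike. At 20 °C the pair of replicates 3 and 4 was the highest for both, with means of 0.954 for AT1G61990 and 0.987 for AT1G62010. At 4 °C the pair of replicates 1 and 2 had the lowest mean of AT1G61990, 0.135, and the highest of AT1G62010, 0.276. These differences between pairs were small beside those between temperatures, since the pair means of AT1G61990 ran from 0.826 to 0.954 at 20 °C and from 0.135 to 0.178 at 4 °C. Those of AT1G62010 ran from 0.845 to 0.987 and from 0.213 to 0.276.

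The place of each probe within its own array does not depend on a scaling factor for the array. AT1G61990 lay between the 64.8 and 74.5 percentile of all probes at 20 °C and between the 23.1 and 32.3 percentile at 4 °C. AT1G62010 lay between the 67.6 and 75.8 percentile at 20 °C and between the 36.5 and 47.2 percentile at 4 °C. Both probes thus went from the brighter part of each array to below its middle.

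**Figure D2:**
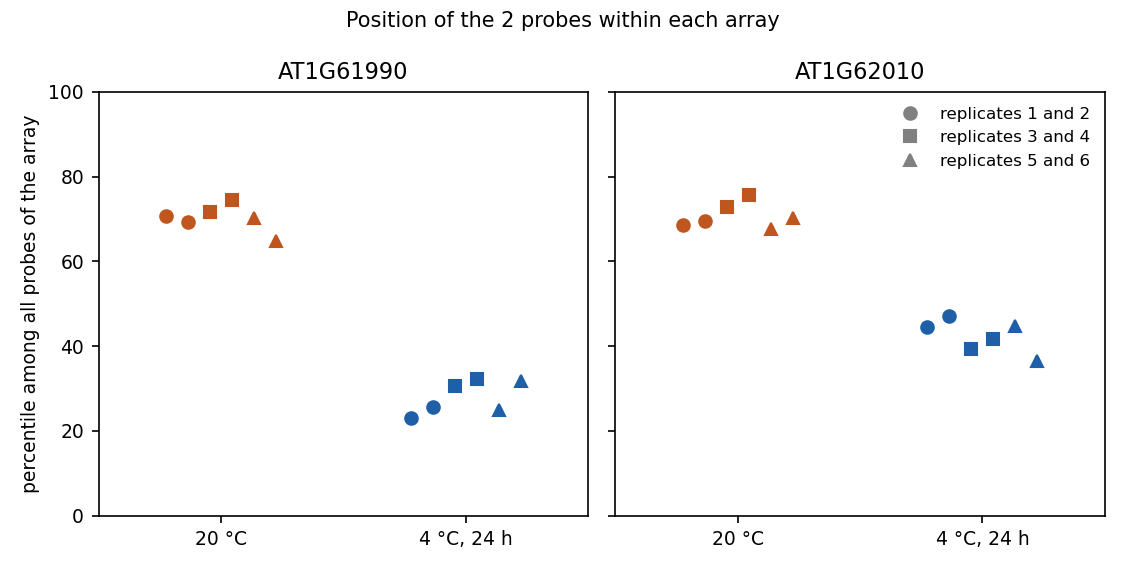
Percentile of each probe among the 3439 probes of its array (vertical axis) for the 12 arrays, by temperature, with symbols for the averaged pairs. AT1G61990 sits between 23.1 and 32.3 at 4 °C and AT1G62010 between 36.5 and 47.2, against 64.8 or more at 20 °C for both.

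Dim probes fell more than bright ones in this table, so both genes were set beside probes of similar brightness. The 3108 probes above 0 on all arrays were split into 10 groups by mean log2 intensity over the 12 arrays, and the median log2 change went from -1.24 in the dimmest to 0.33 in the brightest. AT1G61990 belonged to the fifth group from the dimmest, where 311 probes had a median log2 change of -0.96 and 60.8% were called lower. Its own change relative to that median was -1.59, and 13 of the 311, or 4.18%, had a change as low or lower, counting itself. AT1G62010 belonged to the sixth group, where 310 probes had a median of -0.81 and 56.5% were called lower. Its change relative to that median was -1.11, and 27 of the 310, or 8.71%, had one as low or lower. Grouped by brightness at 20 °C instead, both genes came in the same group of 311 probes, and the distances were -1.73 and -1.10, with 3.54% and 13.8% of its probes as low or lower. Over all 3108 probes 122 had a change as low as that of AT1G61990 or lower and 366 as low as that of AT1G62010 or lower. Among the 614 of them annotated to 1 gene these counts were 19 and 74, so AT1G61990 was near the lower end of the table and AT1G62010 less so.

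**Figure D3:**
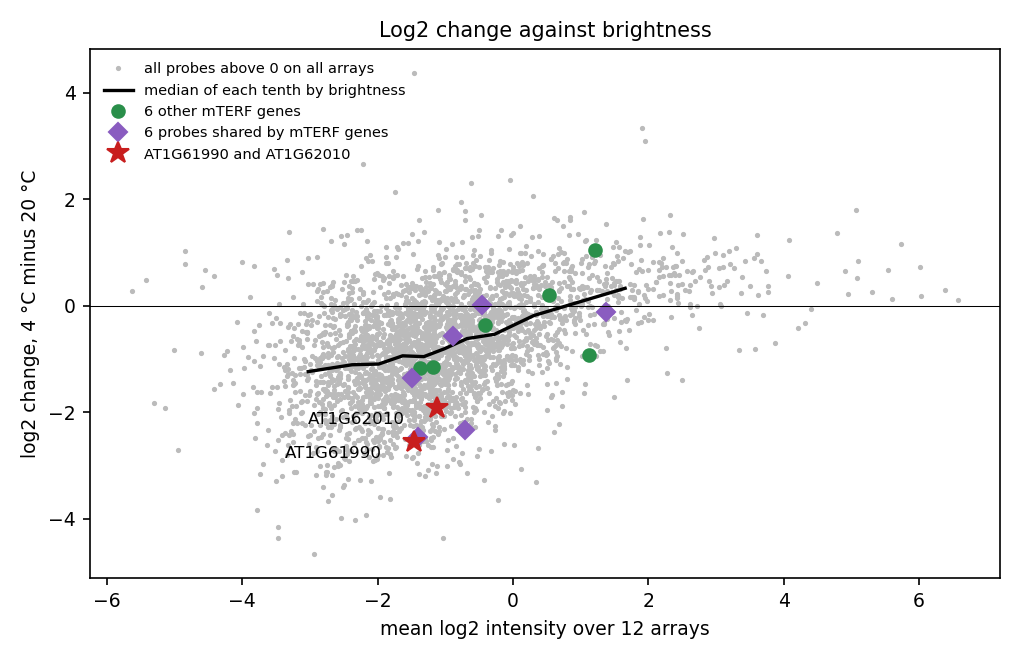
Log2 change at 4 °C (vertical axis, as deposited) against mean log2 intensity over the 12 arrays (horizontal axis) for 3108 probes, with the median of each of 10 brightness groups as a line. AT1G61990 at -2.55 and AT1G62010 at -1.91 lie below the line, at distances of -1.59 and -1.11 from the median of their groups.

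Scaling the arrays to each other in other ways took nearly 1 unit off both changes and left both below 0. After median centring the log2 change was -1.63 ± 0.17 for AT1G61990 and -1.001 ± 0.14 for AT1G62010 (SE). With quantile normalization the values were -1.67 ± 0.12 and -1.10 ± 0.11, and with cyclic loess they were -1.57 ± 0.15 and -1.04 ± 0.12. The distance from probes of similar brightness was -1.62 to -1.55 for AT1G61990 and -1.12 to -1.07 for AT1G62010 under these scalings. Median centring shifts all probes of an array alike, so it cannot move this distance. Quantile normalization and cyclic loess treat probes of similar intensity much alike, so the narrow range is no separate support. With an offset added before log2 the distances were -1.29 and -0.94. AT1G61990 had the lower value of the pair of genes under each scaling. The difference between the genes was not tested, since both were chosen from this contrast.

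**Figure D4:**
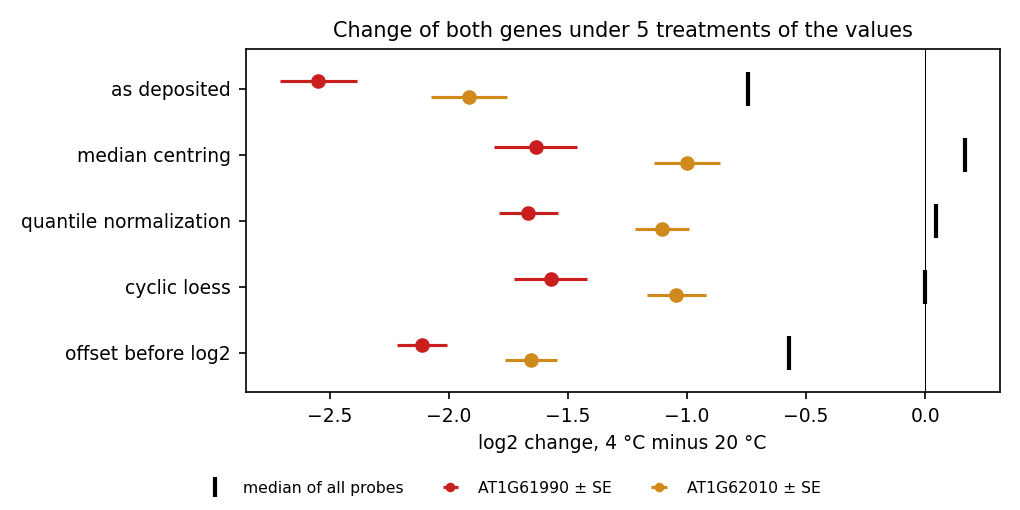
Log2 change at 4 °C (horizontal axis) of AT1G61990 and AT1G62010 with SE bars, as deposited, under 3 other scalings and with an offset added before log2. Black ticks mark the median of all probes, which moves from -0.74 as deposited to 0.17 after median centring, while both genes stay below it in every row.

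Other family members with probes of their own had log2 changes from -1.17 to 1.05. Of 35 mTERF loci listed from general knowledge, 8 had a probe of their own, these 2 included. Of the other 6 genes, 3 passed as lower at 4 °C, 1 passed as higher and 2 did not pass, and 3 of 6 is close to the 49.6% of all probes called lower. With the 12 arrays as separate samples 4 of the 6 passed as lower and 1 as higher, against 59.9% and 12.4% of all probes. Their median log2 change was -0.64, against -0.74 over all probes. Arrays at 4 °C all lay below those at 20 °C in 2 of the 6 and above them in 1, against 48.9% and 8.55% of all probes.

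AT3G18870 was at 2.96, 2.98, 3.21, 2.96, 3.04 and 2.92 on replicates 1 to 6 at 20 °C. At 4 °C it was at 1.83, 1.74, 1.498, 1.45, 1.49 and 1.56. It fell by 0.92 ± 0.13 (SE) on the log2 scale, with no overlap of the groups (limma adjusted p = 0.0026), and by 0.95 after quantile normalization and 1.05 after cyclic loess (limma adjusted p = 0.0019 and 0.0026), but stood at -0.0068 after median centring (limma adjusted p = 0.965). AT3G46950 fell from 0.584 ± 0.104 to 0.266 ± 0.0772 (SD, n = 3), a log2 change of -1.17 with a limma adjusted p of 0.014. AT1G79220 fell from 0.682 ± 0.199 to 0.305 ± 0.0580 (SD, n = 3), a log2 change of -1.15 with a limma adjusted p of 0.015. Its groups overlapped, since replicate 2 at 20 °C was at 0.441 and replicate 3 at 4 °C at 0.461, and without replicates 3 and 4 at 20 °C it no longer passed (limma adjusted p = 0.053). Neither AT3G46950 nor AT1G79220 passed after median centring, quantile normalization or cyclic loess, with log2 changes between -0.31 and -0.22.

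The family also held a gene that went the other way. AT4G09620 was at 1.27, 1.28, 1.76, 1.79, 1.85 and 1.81 on replicates 1 to 6 at 20 °C. At 4 °C it was at 3.31, 3.32, 3.66, 3.85, 3.02 and 2.85. It rose 2.07-fold with no overlap of the groups, a log2 change of 1.05 ± 0.20 (SE, limma adjusted p = 0.0065), and passed as higher after each other scaling, at log2 changes of 0.90 to 1.96. AT5G55580, named mTERF9 in the reference and known as a plastid protein, was at 1.35 ± 0.129 and 1.55 ± 0.122 (SD, n = 3) and did not pass (limma adjusted p = 0.27), though it passed as higher after median centring, at 1.11 (limma adjusted p = 0.0034). AT1G62150, from the same run of genes on chromosome 1 as AT1G61990 and AT1G62010, was at 0.863 ± 0.140 and 0.671 ± 0.0850 (SD, n = 3). Its log2 change of -0.36 did not pass (limma adjusted p = 0.13), its groups overlapped, and it stood between 0.18 and 0.55 after the other scalings, where it passed as higher with median centring only (limma adjusted p = 0.049).

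A further 6 probes were annotated to several mTERF genes at once, so their values cannot be given to any single gene. They were included after the annotation had been read. On pair means 3 of the 6 passed as lower, 0 as higher and 3 did not pass, against 49.6% of all probes lower and 6.87% higher, so the count is close to that of the table. Their log2 changes ran from -2.47 to 0.02. In limma over the 12 arrays as separate samples 4 were lower and 0 higher, against 59.9% and 12.4%, and the count of higher probes was 0 also at an unadjusted p below 0.05 on pair means.

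AT1G61990 was listed on such a probe too, together with AT1G62490, AT1G61960 and AT3G46950. That probe was at 0.798, 0.691, 0.710, 0.693, 0.682 and 0.762 on replicates 1 to 6 at 20 °C. At 4 °C it was at 1.02, 0.941, 0.723, 0.695, 0.539 and 0.591. The groups overlapped, with replicates 1 and 2 at 4 °C above every array at 20 °C and replicates 5 and 6 at 4 °C below every one. Its log2 change was 0.02 ± 0.22 (SE, limma adjusted p = 0.94) and -0.19 without replicates 1 and 2 at 4 °C, where the probe of AT1G61990 alone was at -2.55. After median centring, quantile normalization and cyclic loess this shared probe passed as higher, at 0.94, 0.67 and 0.60 in turn. The limma adjusted p was 0.011, 0.023 and 0.0499, the last just under the threshold. Both probes carry the name of AT1G61990 and did not move alike, and which transcripts each one bound cannot be read from the files, so binding of related transcripts was not tested.

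AT1G61980 and AT1G61970, also of the chromosome 1 run, shared a pair of probes. The first of these was at 0.661 ± 0.0140 at 20 °C and 0.456 ± 0.125 at 4 °C (SD, n = 3), a log2 change of -0.57 that did not pass (limma adjusted p = 0.063). It lay near the threshold, and passed without replicates 1 and 2 at 4 °C (limma adjusted p = 0.0065), without the dimmest probes (0.041), with a trended robust variance (0.043), with the array pair as a random block (0.023) and over 12 arrays (0.0040), while under the 3 other scalings it was above 0 and did not pass. The second was at 0.573 ± 0.0447 and 0.241 ± 0.119 (SD, n = 3), a log2 change of -1.36 with a limma adjusted p of 0.018. It passed under none of the 3 other scalings, at log2 changes of -0.45 to -0.38. The call of the second was lost when any of 3 pairs was left out, with limma adjusted p between 0.053 and 0.055. These were replicates 1 and 2 or 5 and 6 at 20 °C, and replicates 3 and 4 at 4 °C. The probe shared by AT1G62085, AT1G62110 and AT1G56380 was at 2.70 ± 0.352 and 2.49 ± 0.262 (SD, n = 3) and did not pass (limma adjusted p = 0.59), but passed as higher after median centring, at 0.80 (limma adjusted p = 0.0065). The log2 changes of these 4 shared probes that list genes of the run were thus -1.36 to 0.02, against -2.55 and -1.91 for AT1G61990 and AT1G62010 on probes of their own. The difference was not tested.

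Log2 changes of a similar size were seen on shared probes of family members outside that run. The probe of AT1G21150, AT5G64950 and AT5G07900 fell from 1.38 ± 0.109 to 0.277 ± 0.0469 (SD, n = 3), a log2 change of -2.33 (limma adjusted p = 0.00043). The probe of AT1G78930 and AT5G55580 fell from 0.892 ± 0.120 to 0.163 ± 0.0186 (SD, n = 3), a log2 change of -2.47 (limma adjusted p = 0.00038). Both passed as lower after each other scaling, at log2 changes between -1.71 and -1.41.

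**Figure D5:**
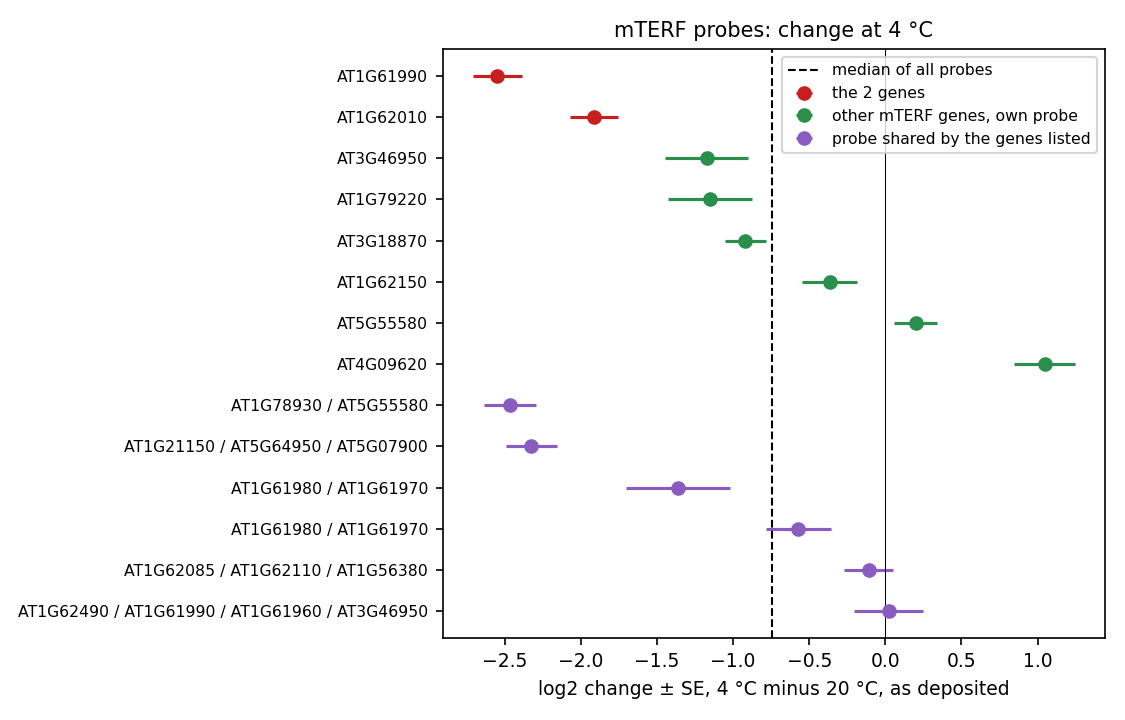
Log2 change at 4 °C (horizontal axis, as deposited, with SE bars) of the 8 mTERF genes on probes of their own and of 6 probes shared by mTERF genes, with the median of all probes, -0.74, as a dashed line. Changes on probes of 1 gene run from -2.55 for AT1G61990 to 1.05 for AT4G09620, and the probe that lists AT1G61990 with 3 relatives sits at 0.02.

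The single-gene probes whose 12-array profile was most like that of AT1G61990, by Pearson r of log2 values, were those of AT1G72540 (r = 0.994), AT4G14330 (r = 0.994), AT1G77730 (r = 0.992), AT1G17744 (r = 0.991) and AT3G27550 (r = 0.991). The first 4 were also among the 5 nearest by root mean square distance and had log2 changes of -2.52, -2.40, -2.25 and -2.72, while AT3G27550 had -1.17 and ranked 174 by distance. For AT1G62010 they were AT5G53930 (r = 0.993), AT3G07790 (r = 0.993), AT3G11150 (r = 0.992), AT5G10910 (r = 0.991) and AT5G22620 (r = 0.991), of which AT3G11150, with a log2 change of -1.78, was also the nearest by distance. AT5G53930, AT3G07790, AT5G10910 and AT5G22620 ranked 10, 34, 217 and 8 by distance, with log2 changes of -2.15, -2.32, -0.91 and -2.12. The correlation between the profiles of AT1G61990 and AT1G62010 was 0.973, which placed AT1G62010 at rank 45 of 613 for AT1G61990 and AT1G61990 at rank 48 for AT1G62010. By distance these ranks were 47 and 128. With each group's mean taken off, the correlation between the 2 genes over the 12 arrays was -0.21, where the median over the single-gene probes was 0.11 for AT1G61990 and 0.20 for AT1G62010. All these correlations run over the same 12 arrays, which come in pairs, and those of whole profiles include the difference between temperatures, with a median r of 0.81 over the 613 probes. They are given as a description, without a test.

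Organelle gene expression beyond the family was hardly covered by probes of 1 gene. Of 33 listed genes of organelle transcription and 21 of organelle RNA processing, 0 had a probe of their own, so neither list gave a value. Among 9 green leaf markers, 5 had a probe of their own and all were above 0 on every array. So were 3108 of all 3439 probes, so being above 0 cannot tell which tissue was taken. As deposited, 49.6% of all probes were called lower and 6.87% higher, with a median log2 change of -0.74, so a fall was common in this table. PSBW rose, with a log2 change of 0.84, PSAN, SBPASE and LHB1B2 fell, with -1.47, -1.03 and -0.83 (limma adjusted p of 0.013 or less for each of the 4), and PRK, at -0.53, did not pass (limma adjusted p = 0.14). Their summed intensity, 41.6 to 50.1 at 20 °C and 49.0 to 61.9 at 4 °C, mostly follows PSBW, which went from 25.7 ± 1.69 to 46.1 ± 5.38 (SD, n = 3). Of 6 root markers 0 had one, and of 4 flower markers only SPL, a regulator of anther and ovule development. SPL was lower at 4 °C as well, from 0.691 ± 0.0269 to 0.287 ± 0.0154 (SD, n = 3, limma adjusted p = 0.00068), a log2 change of -1.27 as deposited. The part of such cells in the values of AT1G61990 and AT1G62010 was not tested.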

How the data were processed

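The deposited table holds a linear intensity, from 0 to 100, for each probe on each array. For the scanner, background correction, scaling and probe sequences, the sources used here give nothing. Gene names came from GEO's platform annotation and were matched by gene identifier to the TAIR10.1 reference: 692 had 1 gene, of which 690 matched, 870 had several and 1877 had none here. The array's genome build is not stated, so no coordinates are printed.

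Intensities were used as deposited. A 0 was replaced by the array's lowest positive value, log2 was taken, replicates 1-2, 3-4 and 5-6 of a group were averaged, and a two-sided limma test (version 3.58.1, under R 4.3.3; lmFit, then eBayes) compared the groups. The ratio of spread between to within these pairs was 11.8 for the median probe of the ML_20C group and 5.08 for that of the ML_4C group, against at most 1.88 and 1.49 for any other pairing. The adjustment ran over all 3439 probes, and calls were counted without the 60 probes at 0 on all arrays. Different probes of a gene were kept apart. The fit was tested on simulated data. The number of arrays limits the precision.

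The genes, lists and tests were chosen with earlier results of these data known. The reference has no gene descriptions, so the mTERF list was not checked against it. Genes named are both members, every other mTERF gene with a probe of its own and the 5 single-gene probes most like each member. The green leaf markers with a probe of their own are named too. AT1G62000, SPL, which was the only flower marker measured, and the shared probes were named after the files were read. Alternatives were 3 other scalings, an offset of 0.0680, leaving out dim probes, arrays or pairs, 12 separate arrays, replicate blocks, a random block and a trended robust variance.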

Additional observations from a re-analysis of the deposited data

How the results depend on the processing

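Other scalings moved the log2 changes of both genes by more than the spread between pairs. For AT1G61990 and AT1G62010 they were -1.63 and -1.001 with median centring, -1.67 and -1.10 with quantile normalization, -1.57 and -1.04 with cyclic loess, and -2.11 and -1.65 with the offset, which also moved the distance of AT1G61990 from probes of similar brightness to -1.29. Leaving out any array or pair gave -2.67 to -2.47 and -2.02 to -1.83. The cause was not tested. Of the 6 other mTERF genes, the count called lower was 0 after median centring (0 also at an unadjusted p below 0.05), 1 after quantile normalization and 1 after cyclic loess, against 18.8%, 20.5% and 20.7% of all probes. In the same fits 3, 1 and 1 were called higher, against 30%, 19.5% and 19.1%. The count lower was 2 to 3 without an array or pair. Signs turned for AT1G62150 (0.55, 0.26 and 0.18 under the 3 scalings), for the first probe of AT1G61980 and AT1G61970 (0.34, 0.21 and 0.20), and, with median centring, for the probe of AT1G62085, AT1G62110 and AT1G56380 (0.80). The probe listing AT1G61990 with 3 relatives ran from -0.19 to 0.21 without an array or pair.

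The count of called probes, 1907 or 56.4%, was 2443 over 12 arrays (59.9% lower, 12.4% higher) and 1809 with the pair number as a replicate block. Same-numbered pairs of the groups correlated at -0.30, -0.0077 and 0.12, and none correlated best with its own number. With 3 pairs per group, these values cannot tell whether same-numbered samples shared more than a number. The block changed no call of a named mTERF gene on pair means. Over 12 arrays AT1G62150 passed as lower (limma adjusted p = 0.024, and 0.0098 with a replicate block) and AT5G55580 passed as higher with the block only (limma adjusted p = 0.017). The lists of organelle transcription and RNA processing gave no value under any alternative.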

Other observations

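Besides AT1G61990, a pair of mTERF genes had both a probe of their own and a place on a shared probe. AT5G55580 on its own probe had a log2 change of 0.20, while the probe it shares with AT1G78930 had -2.47. The own minus shared difference in log2 intensity was 0.60 at 20 °C and 3.27 at 4 °C, with no overlap between pairs. AT3G46950 had -1.17 on its own probe, while the probe it shares with AT1G61990 and others had 0.02, and its own minus shared difference was -0.32 at 20 °C and -1.52 at 4 °C, again with no overlap. The pair of probes that list both AT1G61980 and AT1G61970 differed by 0.21 at 20 °C and 0.999 at 4 °C. With 3 pair means per group the exact two-sided permutation test of each of these 3 differences gave p = 0.10, the smallest it can give, and 0.10 after adjustment over the 3. A p of 0.10 does not pass a threshold of 0.05, which no difference could do at this number of pairs. The limma fits give each probe's own call in the report.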
